A study of Mus musculus with 9 samples.

Results

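The constitutive proteasome genes were followed in RNA sequencing of mouse primary renal tubular epithelial cells (TECs). The members were the protein-coding rows of the expression table named Psma, Psmb, Psmc, Psmd, Psme or Psmf with a number, and the immunoproteasome subunits Psmb8, Psmb9 and Psmb10 were left out. This gave 41 of the 31167 genes in the table. By role they were 8 alpha and 8 beta subunits of the core particle, 6 ATPases and 3 other subunits of the base, 8 lid subunits, 3 base chaperones, 4 activators and 1 inhibitor. The cells came from kidney of C57BL/6 mice and were sampled in 3 groups of 3 libraries, named Sham, H/R and EGR1OV. The name H/R stands for 6 h of hypoxia at 1.0% oxygen in medium without glucose and 18 h of reoxygenation in complete medium. EGR1OV cells were transfected with an Egr1 overexpression plasmid by means of EndoFectin Max. According to a legend of the study, Sham cells were left untreated, and H/R and the plasmid, with a CMV promoter, were given to separate cells. Sham cells were thus not transfected, so changes with Egr1 and changes with transfection cannot be told apart. The sources used here do not say whether the libraries of a group came from separate cultures or animals. The p-values therefore measure the spread between these libraries, which may be technical.

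The proteasome degrades proteins that carry ubiquitin chains. Its core particle is a barrel of alpha and beta rings, and the beta subunits Psmb5, Psmb6 and Psmb7 carry the chymotrypsin-like, caspase-like and trypsin-like peptidase activities. The regulatory particle sits on the end of the barrel: its ATPases unfold the substrate, and its lid removes ubiquitin. Other caps can take its place, among them the activator PA28 made of Psme1 and Psme2, which interferon is known to induce together with the immunoproteasome subunits.

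Psme1 and Psme2 lie on chromosome 14 with 5911 bases between them and point towards each other. Promoter sequence from RefSeq (GRCm38.p6) was at hand for 34 of the 41 members in 37 windows, each from 250 bases before a transcript start to 50 bases after it. The windows below, shown up to 30 bases from the start, belong to the 2 members with the largest rise in EGR1OV and to Psmd4, a called base subunit that was picked because its window holds the searched letters. The windows of Psma5, Psma6 and Psmf1, which were called as well, hold none. Capitals mark the letters of an interferon response core, GAAANNGAA or its reverse complement.
Psme1, chr14:55578244-55578523, plus strand: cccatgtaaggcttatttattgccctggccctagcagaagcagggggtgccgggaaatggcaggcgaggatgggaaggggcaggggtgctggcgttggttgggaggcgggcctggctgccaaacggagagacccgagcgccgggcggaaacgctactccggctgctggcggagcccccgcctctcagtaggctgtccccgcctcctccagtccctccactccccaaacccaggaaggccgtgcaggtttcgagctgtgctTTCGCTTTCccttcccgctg
Psme2, chr14:55591072-55591351, minus strand: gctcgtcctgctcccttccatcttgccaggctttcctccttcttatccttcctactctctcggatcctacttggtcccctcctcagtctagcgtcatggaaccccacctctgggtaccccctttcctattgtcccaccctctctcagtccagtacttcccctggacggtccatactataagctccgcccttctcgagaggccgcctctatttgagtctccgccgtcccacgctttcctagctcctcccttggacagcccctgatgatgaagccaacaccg
Psmd4, chr3:95042585-95042864, minus strand: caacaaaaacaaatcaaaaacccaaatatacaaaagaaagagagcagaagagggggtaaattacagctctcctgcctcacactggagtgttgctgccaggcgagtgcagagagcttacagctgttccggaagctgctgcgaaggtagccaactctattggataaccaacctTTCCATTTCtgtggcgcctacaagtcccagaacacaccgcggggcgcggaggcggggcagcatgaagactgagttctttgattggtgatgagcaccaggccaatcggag

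Searched on both strands, GAAANNGAA was in 6 of the 37 member windows (16.2%) and in 8.56% of all 32851 windows of the table. The 6 windows belonged to Psmb3, Psmb4, Psmc2, Psmd4, Psmd9 and Psme1. In Psme1 the match began at base 11 after the start, and in Psmd4 at 79 bases before it. No match of GAAANNGAA, nor of the GAS letters TTCNNNGAA, lay in either window of Psme2. TTCNNNGAA was in 1 member window (2.70%), that of Psmd2, and in 8.30% of all. The antioxidant response core TGACNNNGC was in 6 member windows (16.2%) against 12.4% of all, among them those of the catalytic subunits Psmb5 and Psmb6. The Egr1 letters GCGNGGGCG were in the windows of Psmc6 and Psmd11, which is 5.41% of member windows against 5.55% of all. CCAAT was in 35.1% against 37.4%, and the hypoxia response core ACGTG in 18.9% against 19.6%. No capitals overlapped a match of another searched motif in the Psme1 and Psmd4 windows shown.

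Depth recovered from the steps of the values ran from 16183838 to 18383938 reads per library. Egr1 was at 6.40 ± 0.443 FPKM in Sham and 42.6 ± 2.84 in EGR1OV (SD, n = 3), in the direction of the labels. FPKM is a level scaled to transcript length and to the reads of the library. Of the markers for other cells, the 7 of 10 leukocyte markers with a mean of at least 0.5 FPKM were all called lower in EGR1OV. Their list summed to 139.9–144.1 FPKM in Sham and 116.2–123.0 in H/R, and to 22.1–26.7 FPKM in EGR1OV, with Cd79a, Itgam and Ptprc below 0.5 FPKM. Fibroblast markers (7 genes) summed to 35.6–37.3, 43.1–44.0 and 40.4–45.0 FPKM, and endothelial markers (7 genes) to 11.6–12.6, 12.2–13.0 and 8.79–9.19 FPKM, in the same order of groups. Of 13 tubule markers, 10 reached 0.5 FPKM, Umod was at 0 in every library, and Cubn and Slc34a1 were below 0.5 FPKM. The sum of the tubule list was 2012–2050 FPKM in Sham and 1867–1950 in H/R. It was 1312–1422 FPKM in EGR1OV, and 4 of these genes were called lower in EGR1OV against Sham. Whether these shifts have a part in the proteasome values was not tested. In bulk RNA, fewer cells of a type and less RNA per cell cannot be told apart.

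Proteasome transcripts were abundant in Sham cells, and 39 of the 41 members averaged 0.5 FPKM or more across the libraries. The exceptions were the subunits known from testis and thymus. Psma8, the testis alpha subunit, stayed between 0.03 and 0.18 FPKM, and Psmb11, the thymus beta subunit, between 0 and 0.07 FPKM. Psmb11 lies 3410 bases from Psmb5, which was at 59.8 ± 2.16 FPKM in Sham.

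The summed level of all members was 2048 ± 17.2 FPKM in Sham. The core particle subunits spanned a wide range for genes whose products enter the barrel in equal number. In the alpha ring Psma3 was lowest at 28.7 ± 0.0899 FPKM and Psma6 highest at 104 ± 1.87 FPKM, a ratio of 3.62. In the beta ring Psmb7 was lowest at 24.2 ± 0.565 FPKM and Psmb1 highest at 141 ± 2.25 FPKM, the highest level of any member. The ratio within the beta ring was 5.84. Length here is that of all annotated exons of a gene, so isoforms enter these comparisons between genes.

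The regulatory particle had the same spread. Among the ATPases Psmc2 was lowest at 25.9 ± 0.806 FPKM and Psmc1 highest at 115 ± 1.52 FPKM. Of the other base subunits, Psmd1 was at 30.7 ± 0.316 and Psmd2, the other large scaffold of the base, at 107 ± 0.887 FPKM. In the lid the range ran from Psmd11 at 21.3 ± 0.503 to Psmd8 at 129 ± 2.73 FPKM, a ratio of 6.09. The chaperones that help build the base were low, with Psmd9 at 4.17 ± 0.0169, the lowest of the 39, and Psmd10 at 20.8 ± 0.415 FPKM. Replicates lay close together, and the median coefficient of variation of the 39 members was 2.27% for Sham, 3.24% for H/R and 2.96% for EGR1OV (n = 3).

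**Figure D1:**
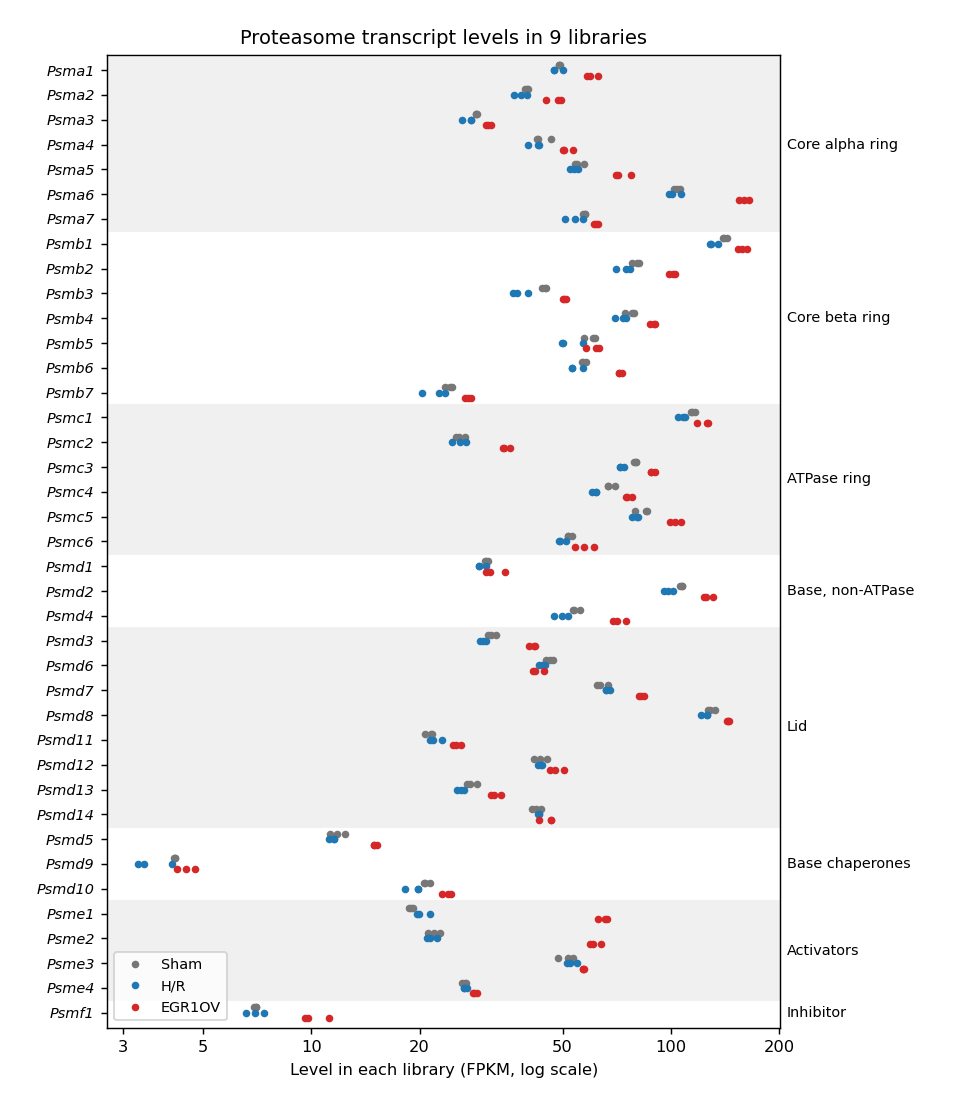
Level of each of the 39 expressed members in each of the 9 libraries, in FPKM on a log axis, with each point a library and members grouped by role. Psme1 and Psme2 are the members whose EGR1OV points lie far from the rest, and Psmd9 is the lowest row.

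EGR1OV was set against Sham to see which members change with the Egr1 plasmid. Proteasome transcripts were higher almost throughout, by a small step for most and by about 3-fold for PA28. Of the 39 members tested, 7 were called higher and 0 lower, a call being an adjusted p under 0.05 with a change of at least 1.3-fold. At an unadjusted limma p under 0.05, 35 members were higher and 1 was lower, and voom called 7 higher and 0 lower. The share of all genes at that unadjusted p is not given here. Over all 13985 genes tested, 9.87% were called higher and 6.51% lower. With no fold threshold, 35 of the 39 were higher at an adjusted p under 0.05, against 26.1% of all genes, and 1 was lower, against 19.8% of all genes. The count of 35 became 26 when values were quantile normalized and 31 with median-ratio scaling. The median log2 change of the 39 was 0.21, and that of all genes was 0.02. Without Psme1 and Psme2 the median was 0.18. After quantile normalization the medians were 0.14 and -0.05, and 4 members were called higher.

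**Figure D2:**
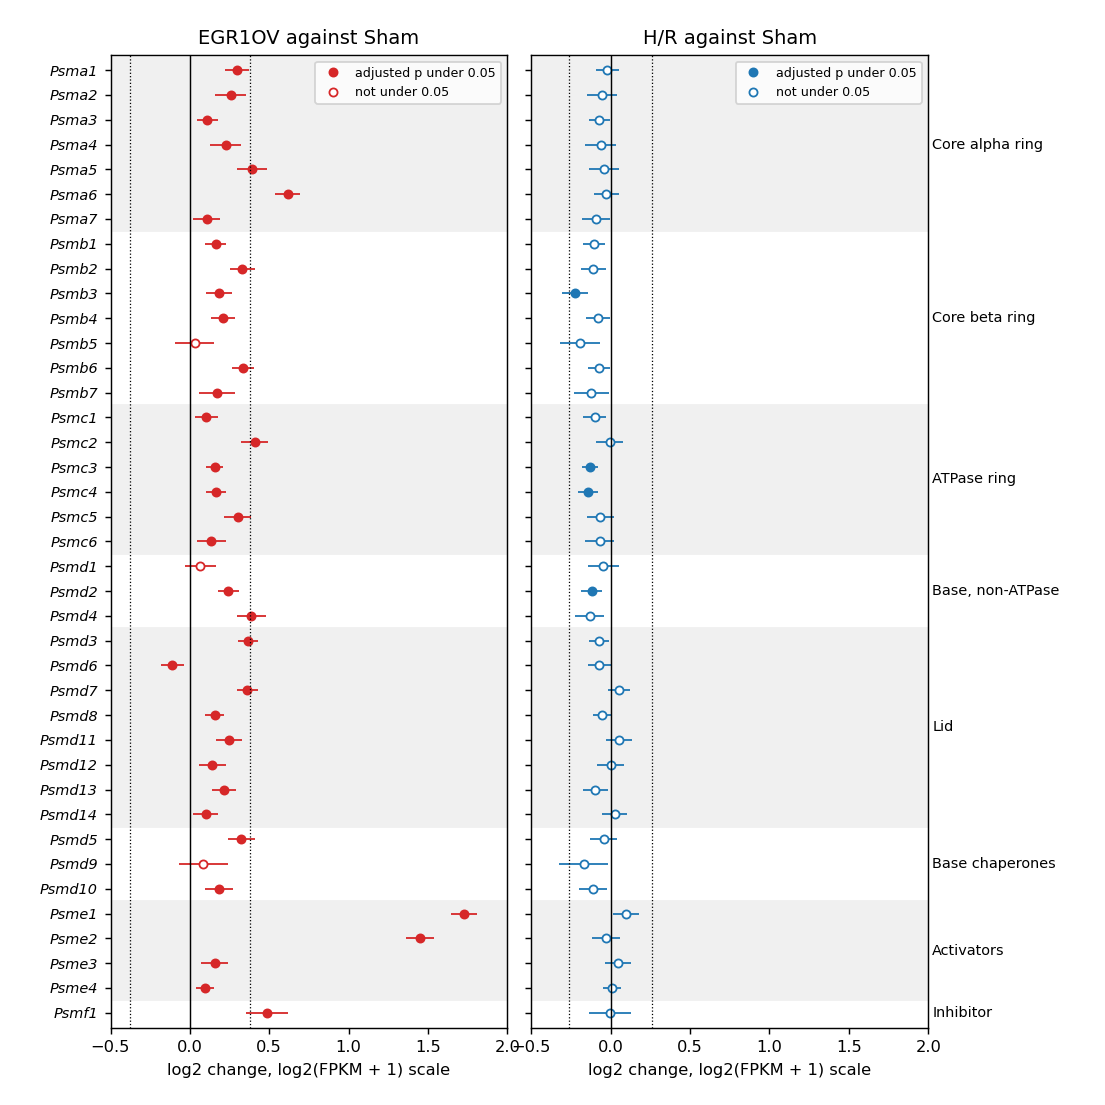
Log2 change of the 39 tested members against Sham in EGR1OV (left) and H/R (right) on the log2(FPKM + 1) scale, with 95% confidence intervals from limma; filled points have an adjusted p under 0.05 and dotted lines mark the fold threshold of a call. In EGR1OV 38 of 39 points lie above 0 and in H/R 33 of 39 lie below it, none of them past the H/R fold threshold. Over all genes 53.2% lie above 0 in EGR1OV and 40.1% in H/R.

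PA28 changed most. Psme1, which encodes the alpha subunit, was at 18.7, 19.2 and 18.9 FPKM in Sham cells, 21.4, 19.7 and 19.98 after H/R, and 65.4, 62.8 and 66.6 in the EGR1OV libraries. The EGR1OV values lay far above the others, and the ratio of means to Sham was 3.43. The log2 change was 1.73 (SE 0.04, limma adjusted p 4.92e-10). Psme2, the beta subunit, was at 21.9, 21.1 and 22.8 FPKM in Sham cells, 20.9, 21.3 and 22.3 after H/R, and 59.7, 60.9 and 63.9 in the EGR1OV libraries. Sham and H/R overlapped, and EGR1OV stood apart at 2.80 times the Sham mean, a log2 change of 1.45 (SE 0.04, limma adjusted p 3.08e-09). The calls of both held in all 18 alternative analyses.

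Psme2 has a near copy, and its level is therefore uncertain. Of the 50-base words in its longest transcript, 59.3% also occur in another gene, chiefly Psme2b on chromosome 11. Psme2b was at 33.0, 31.0 and 31.0 FPKM in Sham cells, 29.5, 32.7 and 30.5 after H/R, and 79.9, 79.2 and 81.8 in the EGR1OV libraries. The pair thus moved the same way, with a log2 change of 1.32 for Psme2b (SE 0.04, limma adjusted p 7.86e-09). How reads were shared between them is not given in the sources used here. For Psme1 the share of such words was 2.27%.

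The remaining activators changed little. Psme3, which forms the nuclear cap PA28 gamma, was at 51.7, 48.5 and 53.3 FPKM in Sham and at 57.0, 57.5 and 56.9 in EGR1OV, with no overlap. Its log2 change of 0.16 (SE 0.04, limma adjusted p 0.00719) was under the fold threshold. Psme4, the large single-chain cap PA200, had a mean of 26.6 ± 0.338 FPKM in Sham and 28.5 ± 0.408 in EGR1OV, a log2 change of 0.09 (limma adjusted p 0.0115). Psme4 was at 0.01 when quantile normalized (limma adjusted p 0.675). The inhibitor Psmf1 rose from 6.94, 7.01 and 7.02 FPKM in Sham to 9.63, 9.77 and 11.2 in EGR1OV. The third EGR1OV library was the highest, and all 3 lay above every Sham and H/R library. The log2 change of Psmf1 was 0.48 (SE 0.06, limma adjusted p 0.000124), a call kept in all 18 alternatives.

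**Figure D3:**
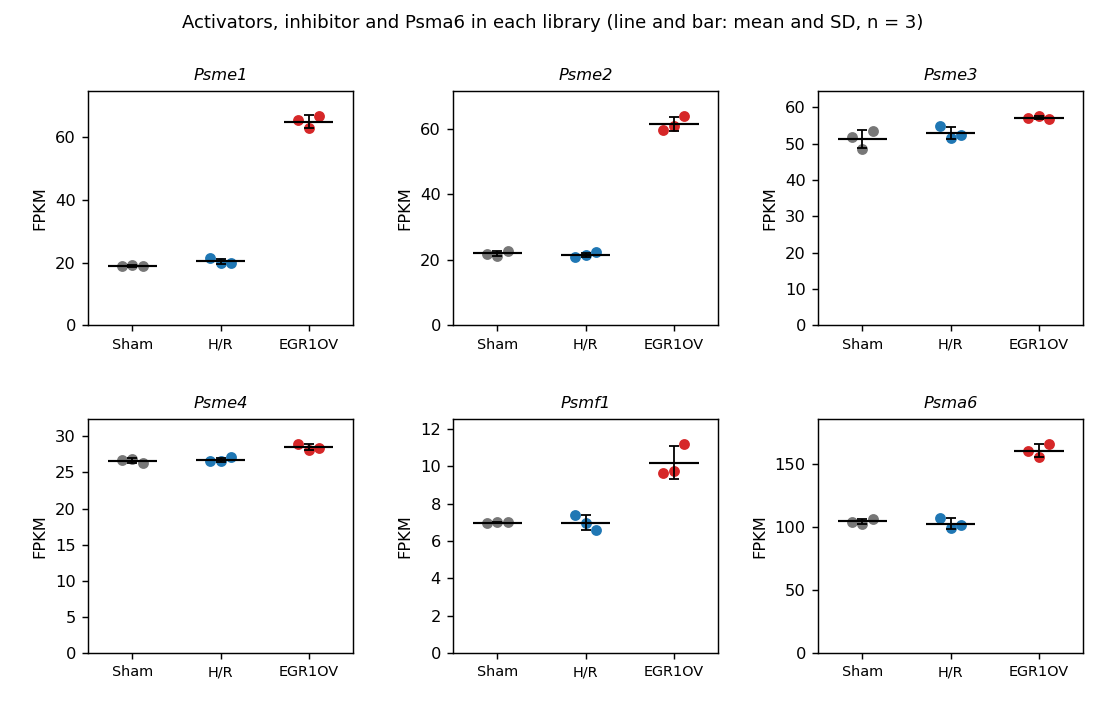
Level in FPKM of the 4 activators, the inhibitor Psmf1 and the alpha subunit Psma6 in each library, with the mean as a line and the SD as a bar (n = 3), axes starting at 0. Psme1 and Psme2 go from about 20 FPKM in Sham to above 59 FPKM in EGR1OV, while Psme3 and Psme4 stay near their Sham level.

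All 7 expressed alpha subunits were higher in EGR1OV at an adjusted p under 0.05, with log2 changes of 0.11 to 0.62. The count was 6 under median-ratio scaling, without Psma7, and 5 after quantile normalization, without Psma3 and Psma7. Psma6 led them, at 104, 102 and 106 FPKM in Sham cells, 107, 98.8 and 101 after H/R, and 160, 155 and 166 in the EGR1OV libraries. Its groups Sham and EGR1OV did not overlap, and its log2 change of 0.62 (SE 0.04, limma adjusted p 8.21e-07) was the largest outside PA28. Psma5 followed, with 54.7, 54.1 and 57.4 FPKM in Sham and 71.1, 70.3 and 77.5 in EGR1OV. Its log2 change was 0.39 (SE 0.04, limma adjusted p 5.93e-05), close to the threshold. The call of Psma5 was lost under median-ratio scaling, under quantile normalization, without Sham replicate 2 and without EGR1OV replicate 3, where its log2 change was at least 0.34. Of the 50-base words of Psma5, 54.5% occur in other genes, mainly in Gm8394, which had a mean of 5.55 FPKM. The smallest changes of the ring were those of Psma3 and Psma7, both at 0.11, and both at 0.03 after quantile normalization. Psma3 shares 22.02% of its words with Gm13835, which was at a mean of 79.6 FPKM and had a log2 change of 0.07 (limma adjusted p 0.102).

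In the beta ring 6 of 7 expressed subunits were higher at an adjusted p under 0.05, 5 after quantile normalization, and none reached 1.3-fold. The catalytic subunits differed in their values. Psmb6, the caspase-like subunit, was at 58.2, 56.9 and 56.7 FPKM in Sham and at 72.0, 73.2 and 71.9 in EGR1OV, a log2 change of 0.33 (SE 0.03, limma adjusted p 1.95e-05). Psmb7, the trypsin-like subunit, went from 24.3, 24.6 and 23.5 to 27.4, 27.8 and 26.8 FPKM, a log2 change of 0.17 (SE 0.05, limma adjusted p 0.0181; 0.135 after quantile normalization). Psmb5, the chymotrypsin-like subunit, was at 61.4, 57.4 and 60.8 FPKM in Sham and at 58.2, 62.1 and 63.1 in EGR1OV, and these groups overlapped. Its log2 change of 0.03 had a 95% interval of -0.09 to 0.15 (limma adjusted p 0.694), so a rise of 1.3-fold lay outside the interval. After quantile normalization the change of Psmb5 was -0.04. Of the words of Psmb5, 57.1% occur in other genes, mostly in Gm3375, which was at a mean of 0.106 FPKM. Psmb2, a beta subunit without peptidase activity, had the next largest change after Psmb6 at 0.33. Exons of Psmb7 overlap those of Nek6 on the opposite strand over 11.8% of their length.

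Beside the constitutive catalytic subunits stand the immunoproteasome subunits that can replace them. Psmb8 was at 0.734, 0.985 and 1.11 FPKM in Sham and at 17.8, 17.5 and 16.9 in EGR1OV. Of the summed FPKM of Psmb8 and Psmb5, Psmb8 made up 1.55% ± 0.326 for Sham, 1.99% ± 0.357 for H/R and 22.2% ± 1.14 for EGR1OV (SD, n = 3). For Psmb9 with Psmb6 the shares were 0.349% ± 0.0914, 0.426% ± 0.0725 and 9.85% ± 0.212. For Psmb10 with Psmb7 they were 23.2% ± 0.261, 25.1% ± 1.75 and 70.7% ± 1.14. In EGR1OV, and not in Sham or H/R, the immunoproteasome subunit had the larger part of the FPKM of this pair. The lengths behind FPKM are those of all annotated exons, 3381 bases for Psmb8 and 899 for Psmb5, so isoforms enter these shares. The shares of EGR1OV overlapped neither group in any pair. Each comparison with EGR1OV gave an exact permutation p of 0.1 (two-sided), the smallest that 3 against 3 allows, and 0.15 after adjustment over 9 comparisons. H/R against Sham gave exact permutation p-values of 0.2 to 0.3, 0.257 to 0.3 after adjustment. The fall in leukocyte marker sums stands beside these shares, and its part in them was not tested.

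**Figure D4:**
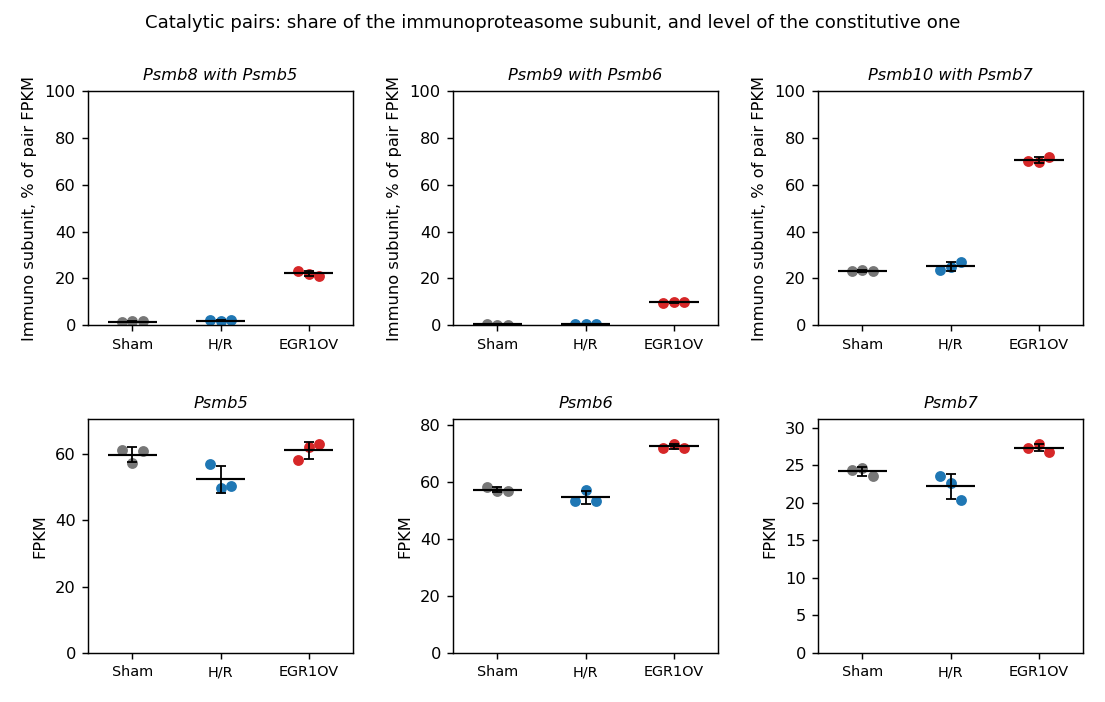
Top row, the immunoproteasome subunit as a percentage of the FPKM of its catalytic pair in each library; bottom row, the level of the constitutive subunit in FPKM, with mean lines and SD bars (n = 3). EGR1OV shares are 22.2%, 9.85% and 70.7%, while Psmb5 is near 60 FPKM in Sham and EGR1OV and at a mean of 52.3 FPKM in H/R.

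In the base of the regulatory particle all 6 ATPases were higher in EGR1OV at an adjusted p under 0.05, with log2 changes of 0.10 to 0.41, and 1 was called. Only 4 of the 6 passed with either median-ratio scaling or quantile normalization, Psmc1 and Psmc6 being the exceptions. The called ATPase was Psmc2, at 25.2, 26.8 and 25.8 FPKM in Sham cells, 26.0, 26.9 and 24.6 after H/R, and 34.4, 34.2 and 35.7 in the EGR1OV libraries. Sham and H/R overlapped and EGR1OV did not. Its log2 change was 0.41 (SE 0.04, limma adjusted p 2.24e-05), and the call was lost under quantile normalization, at 0.32. Psmd4, the ubiquitin receptor of the base, was at 53.5, 53.9 and 55.9 FPKM in Sham and at 69.1, 75.0 and 70.6 in EGR1OV. Its log2 change of 0.39 (SE 0.04, limma adjusted p 5.13e-05) fell under the fold threshold with median-ratio scaling, quantile normalization, and without Sham replicate 1 or EGR1OV replicate 2. The scaffolds Psmd1 and Psmd2 had log2 changes of 0.06 (limma adjusted p 0.258) and 0.24 (limma adjusted p 0.000137), and that of Psmd1 turned to -0.02 after quantile normalization. The base chaperones Psmd5 and Psmd10 were at 0.32 and 0.18, both past the adjusted p alone, Psmd10 not after quantile normalization (limma adjusted p 0.0615), and Psmd9 was at 0.08 (limma adjusted p 0.347).

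The lid held the member with a lower level. Psmd6 was at 47.0, 45.0 and 46.1 FPKM in Sham cells, 44.6, 43.1 and 43.7 after H/R, and 41.9, 41.5 and 44.5 in the EGR1OV libraries. The EGR1OV libraries lay below the Sham libraries and overlapped H/R. Its log2 change was -0.11 (SE 0.03, limma adjusted p 0.0206), and its adjusted p rose to as much as 0.073 in the alternatives. It was above 0.05 without Sham replicate 1, Sham replicate 3, EGR1OV replicate 1 or EGR1OV replicate 2. The 7 other lid subunits were higher at an adjusted p under 0.05, led by Psmd3 at 0.37 and Psmd7 at 0.36, and none was called. Of these 7, 6 passed under median-ratio scaling and 5 after quantile normalization. Psmd14, the lid enzyme that removes ubiquitin, was at 0.10 (limma adjusted p 0.044), and its Sham and EGR1OV libraries overlapped. The adjusted p of Psmd14 was 0.0800 with the replicate block, 0.132 under median-ratio scaling and 0.372 after quantile normalization.

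Summed by sub-assembly, the EGR1OV to Sham ratio was 1.28 for the alpha ring, 1.16 for the beta ring, 1.14 for the ATPases, 1.1998 for the other base subunits and 1.14 for the lid. For PA28 it was 3.09, from 40.9 ± 0.753 to 126 ± 3.57 FPKM. All members summed to 2488 ± 44.9 FPKM in EGR1OV, 1.21 times Sham. Without Psme1 and Psme2 the ratio was 1.18. In H/R the sum was 1948 ± 32.3 FPKM, 0.951 times Sham.

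**Figure D5:**
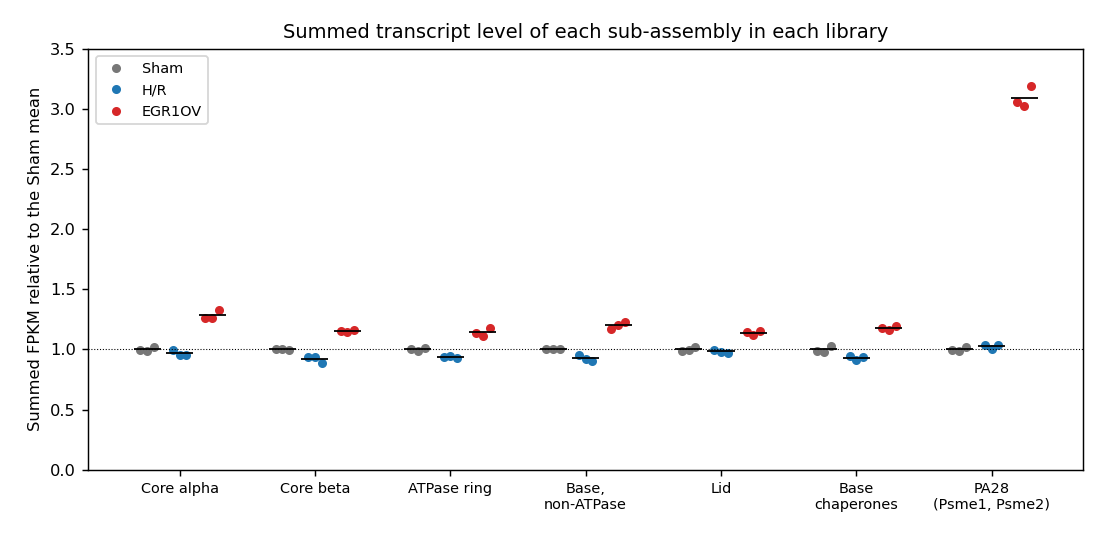
Summed FPKM of each sub-assembly in each library, divided by its Sham mean (dotted line at 1); black lines are group means. PA28 reaches 3.09 in EGR1OV, the other sub-assemblies 1.14 to 1.28, and the core beta ring lies lowest in H/R at 0.920.

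H/R was set against Sham to see which members change with hypoxia and reoxygenation, and the differences were small. Of the 39 members 0 were called higher and 0 lower by limma at 1.2-fold, against 1.6% and 2.65% of all genes. With no fold threshold, 0 were higher and 4 lower at an adjusted p under 0.05, against 4.15% and 7.54% of all genes. At an unadjusted limma p under 0.05 there were 1 higher and 18 lower, and voom on recovered reads called 0 in either direction. The share of all genes at that unadjusted p is not given here. The count of 4 was 3 with the replicate block, 2 under median-ratio scaling and 7 with voom on recovered reads. At the level of the estimate, 33 of 39 lay below 0 and 6 above it, and of all genes 40.1% lay above 0. The median log2 change was -0.07 against -0.03 for all genes. Under median-ratio scaling these medians were -0.03 and 0.0020.

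The 4 lower members were the beta subunit Psmb3, the ATPases Psmc3 and Psmc4, and the scaffold Psmd2. Psmb3 was at 44.8, 43.7 and 44.8 FPKM in Sham and at 37.2, 40.2 and 36.3 in H/R, without overlap. Its log2 change was -0.22 (SE 0.04, limma adjusted p 0.00626), and without H/R replicate 2, the highest of the H/R libraries, it passed the 1.2-fold threshold at -0.27. Psmc3 was at 80.2, 78.9 and 80.0 FPKM in Sham and at 72.3, 72.2 and 74.1 in H/R, a log2 change of -0.13 (SE 0.02, limma adjusted p 0.00918). Psmc4 had a log2 change of -0.14 (SE 0.03, limma adjusted p 0.0127) and Psmd2 of -0.12 (SE 0.03, limma adjusted p 0.0333). Under median-ratio scaling the adjusted p was 0.0537 for Psmc4 and 0.159 for Psmd2, and that of Psmd2 was 0.0751 with the replicate block. Of the 50-base words of Psmd2, 26.05% occur in other genes, mainly in Gm5422 at a mean of 1.53 FPKM. For Psmb3 the share is 10.1%. Exons of Psmc3 overlap those of Slc39a13, at a mean of 14.9 FPKM, on the opposite strand over 8.25% of their length. Psmb5 was at 57.0, 49.7 and 50.2 FPKM in H/R, below its 3 Sham libraries, with a log2 change of -0.19 (SE 0.06, limma adjusted p 0.0552). The activators Psme1 and Psme2 were at 0.10 (limma adjusted p 0.112) and -0.03 (limma adjusted p 0.707), and Psmf1 at -0.0033 (limma adjusted p 0.98).

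EGR1OV was also set against H/R directly. Here 11 of 39 members were called higher and 0 lower, against 11.9% and 6.94% of all genes. With no fold threshold 36 were higher and 0 lower, against 32% and 19% of all genes, and the median log2 difference was 0.29 against 0.05. The count of 36 was 33 under median-ratio scaling and 30 after quantile normalization. At an unadjusted limma p under 0.05, 37 members were higher and 0 lower, and voom called 12 higher and 0 lower. The share of all genes at that unadjusted p is not given here. The called members were Psma5, Psma6, Psmb2, Psmb3, Psmb6, Psmc2, Psmd3, Psmd4, Psme1, Psme2 and Psmf1. This comparison shares its EGR1OV libraries with that against Sham. Psme1 and Psme2 differed by 1.63 and 1.47, Psma6 by 0.64 and Psmd4 by 0.52, and these 4 calls held in all 18 alternatives. The 3 members called here and not against Sham in the core, Psmb2, Psmb3 and Psmb6, differed by 0.44, 0.41 and 0.40, and Psmd3 of the lid by 0.44. Their calls were lost under median-ratio scaling and quantile normalization, as were those of Psma5 and Psmc2, while Psmf1 was lost under the latter and Psmb3 also without H/R replicate 3, at 0.38. Under median-ratio scaling 5 members were called higher and under quantile normalization 4.

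Genes that work with the proteasome are given for the same libraries, and the counts of these short lists are to be read beside the 9.87% of all genes called higher and 6.51% called lower. Of the 5 genes that assemble the core particle, 1 was called higher in EGR1OV against Sham. This was Psmg4, a core chaperone, which went from 10.9 ± 1.05 to 18.1 ± 2.24 FPKM, a log2 change of 0.68 (SE 0.12, limma adjusted p 0.00167). Pomp, the maturation protein of the core, was at 0.18 (limma adjusted p 0.0138), and Psmg1, Psmg2 and Psmg3 were at -0.12, -0.18 and -0.24 with adjusted p-values of 0.356, 0.102 and 0.128 by limma. Of 10 other regulatory genes, 2 were called higher, the ubiquitin receptor Adrm1 at 0.50 and the PA28 gamma partner Fam192a at 0.47. Of 7 shuttle factors 1 was called, Nub1 at 0.89. Of 8 genes tied to proteasome transcription 2 were called, Nfe2l2 at 0.60 and Nfe2l1 at 0.41, the latter not after quantile normalization, at 0.36. Nfe2l1 encodes the factor known to raise proteasome genes when proteasome activity drops, and it was at 92.8 ± 2.89 FPKM in Sham and 124 ± 1.22 in EGR1OV. Among the ubiquitin genes reported here, Ubb rose by 0.80 and the activating enzyme Uba6 fell by 0.51 on the log2 scale.

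The genes known to be induced by interferon moved with PA28. The 3 immunoproteasome subunits were all called higher in EGR1OV against Sham, Psmb8 at 3.25, Psmb10 at 3.01 and Psmb9 at 2.89. All 6 peptide loading genes were called higher, with a median log2 change of 2.47, and all 10 interferon response genes, with a median of 3.79. In H/R against Sham none of these 19 genes was called higher by limma, and the peptide transporter Tap1 was called lower at -0.26. The medians of the members without Psme1 and Psme2, 0.18 in EGR1OV and -0.07 in H/R, stand beside these values. Nfe2l2 was lower in H/R at an adjusted p of 0.0167 by limma with a log2 change of -0.15, under the fold threshold.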

How the data were processed

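RNA from 9 libraries, 3 each of Sham, H/R and EGR1OV, was measured, with groups as the sample titles give them. Values are FPKM as the authors deposited them, in a column for each library with no pooling. The submitters' processing notes list Bowtie2 2.2.3, HISAT2 2.1.0, TopHat2 and the build mm9 without roles. The counting tool, its use of strand and the annotation are not given in the sources used here. Of the gene identifiers 99.8% are in GENCODE M21 (GRCm38), and 94.8% of their positions are equal to it, so that build was used. The strand of the libraries is not known, so opposite-strand genes that share exons cannot be told apart.

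FPKM steps with GENCODE M21 exon lengths gave the depth, 16183838 to 18383938 reads (ratio 1.14). Of 154352 values at low to middle read numbers, 98.7% were whole within 0.02 reads. Members were counted on 402 reads or more in every library, apart from Psma8 and Psmb11 with at most 7.37 reads.

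The scale of the tests was log2(FPKM + 1), on which changes of low genes are understated. A single limma fit (version 3.58.1 under R 4.3.3, by lmFit, then eBayes with its trend option) of all 9 libraries covered the 13985 genes that averaged 0.5 FPKM or more, two-sided, with Benjamini-Hochberg adjustment. Calls needed an adjusted p under 0.05 and 1.3-fold, or 1.2-fold for H/R against Sham, after thresholds of the study. Single levels and catalytic shares were compared by exact permutation. On simulated libraries for EGR1OV against Sham (13967 genes, 200 changed), 73 of 100 genes changed 1.5-fold and 94 of 100 changed 2-fold were recovered in the right direction, and 4 unchanged genes were called.

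Named were the catalytic, tissue-restricted, activator, inhibitor and base chaperone members, every called member, and the highest and lowest of each group in Sham. Of other genes, the rule took the immunoproteasome and core assembly genes, Egr1, Nfe2l1 and up to 3 called genes per list. Psmd1, Psmd2, Psmd6, Psmd7, Psmd14, Psma7, Psmc3, Psmc4, the near copies and Nfe2l2 in H/R were named after their values were seen, where they fall outside the rule. A gene that the rule picks is not reported here. Members and lists were chosen with earlier results of these data known, and the counts at an adjusted p alone, with the choice of the 4 members set apart in the closing section, were added after other results were seen. Alternatives were quantile normalization, median-ratio scaling, voom on recovered reads, a replicate block, a pseudocount of 0.1, no filter or one at 5 FPKM, limma with no trend, fits of only the groups compared, each library left out, and no fold threshold. Tables and figures were made in Python 3.11.15 (pandas 2.3.3, numpy 2.4.6, matplotlib 3.10.9, scipy 1.17.1).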

Additional observations from a re-analysis of the deposited data

Results flagged for a closer look

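Psmb3, Psmc3, Psmc4 and Psmd2 were set apart because H/R lay below Sham, EGR1OV lay above Sham, and the 2 treated groups differed. Each difference had to reach a limma adjusted p below 0.05, whatever its size. The gap between the treated groups was thus part of the choice, and its p-values below are not a separate test. EGR1OV exceeded H/R by 0.41 for Psmb3 (limma adjusted p 1.51e-05), by 0.28 for Psmc3 (7.19e-06), by 0.31 for Psmc4 (1.58e-05) and by 0.36 for Psmd2 (8.45e-06), all as log2 differences. Both comparisons with Sham share the Sham libraries. The EGR1OV libraries did not overlap the H/R libraries for any of the 4, as was so for 37 of the 39 members tested. The share of all genes without such overlap is not given here, so these counts are not read as a result about the members. Under median-ratio scaling the fall in H/R had a limma adjusted p of 0.0537 for Psmc4 and 0.159 for Psmd2. Against Sham, the changes in EGR1OV were 0.18, 0.16, 0.17 and 0.24, and those in H/R were -0.22, -0.13, -0.14 and -0.12, in the same order.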

How the results depend on the processing

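No called value changed sign. Members called higher in EGR1OV against Sham numbered 7 as reported, 4 after quantile normalization and 35 with no fold threshold, and called lower 0 and, with no fold threshold, 1. Their median log2 change was 0.21 and after quantile normalization 0.14. For H/R against Sham the members called lower numbered 0, 4 with no fold threshold, and 0 to 1 with a library left out, 1 being without H/R replicate 2. Members lower at an adjusted p under 0.05 alone numbered 4, 7 with a mean of at least 5 FPKM, 7 with voom on recovered reads, 2 under median-ratio scaling and 3 to 6 with a library left out. The median was -0.069, and -0.030 under median-ratio scaling. For EGR1OV against H/R 11 members were called higher, 5 under median-ratio scaling, 4 after quantile normalization and 36 with no fold threshold, and 1 member was lower at an adjusted p under 0.05 alone under either scaling. The median of 0.29 was 0.23 under median-ratio scaling and 0.21 after quantile normalization. In EGR1OV against Sham the member lower at an adjusted p alone numbered 0 to 1 with a library left out. The cause of these shifts was not tested, except that leaving out a library leaves fewer samples.

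Libraries with equal replicate numbers did not deviate together in every pair, with r from -0.195 to 0.263, so the numbers were not taken to pair samples. With the replicate block 7 members were called higher in EGR1OV against Sham, 0 lower in H/R against Sham and 11 higher in EGR1OV against H/R, as without it. Among single genes, 2700 results kept their direction and their side of the threshold under an alternative, 69 passed it, 33 fell short of it and 39 changed sign, none of them called as reported. Of these, Psme4 in EGR1OV against H/R had passed the adjusted p alone. After quantile normalization the log2 change was -0.024 for Psmd1 and -0.039 for Psmb5 in EGR1OV against Sham, and -0.0098 for Psme4, -0.0084 for Psmd14, -0.016 for Psmg1 and -0.13 for Psmg2 (-0.058 under median-ratio scaling) in EGR1OV against H/R. In H/R against Sham it was, under median-ratio scaling, 0.011 for Psme2, 0.033 for Psmc2, 0.019 for Psma1, 0.013 for Psma6, 0.032 for Psmf1, 0.039 for Psmd12, 0.017 for Psmg3, 0.0035 for Psmg4 and 0.0042 for Psme2b. After quantile normalization it was 0.0079 for Psmc2, 0.022 for Psmf1, 0.020 for Psmd12 and 0.025 for Psmg3, and with voom 0.00020 for Psmd12. With a library left out, the ranges in H/R against Sham were -0.053 to 0.00013 for Psme2, -0.0028 to 0.013 for Psme4, -0.034 to 0.027 for Psmc2, -0.040 to 0.032 for Psmf1, -0.027 to 0.028 for Psmd12, -0.11 to 0.099 for Psmg3, -0.11 to 0.10 for Psmg4, -0.0044 to 0.042 for Psmb10 and -0.0046 to 0.18 for Psmb8, and in EGR1OV against H/R -0.082 to 0.065 for Psmg2. Where a library is left out, its group is assumed to vary like the others.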
